A study of Homo sapiens with 12 samples.

Results

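The mRNAs described here encode the RNA exosome nucleases DIS3 and DIS3L and proteins that bring nuclear RNA to the exosome or bind its core. The nuclear nuclease EXOSC10 is not in the set and is counted further on with the exosome core. The set was a fixed list of 10 genes (DIS3, DIS3L, MTREX, ZCCHC8, RBM7, ZFC3H1, ZCCHC7, TENT4B, MPHOSPH6 and C1D), found by symbol among the 22379 gene rows of the table, and all 10 were in it. All 10 also passed the filter on low values (untreated mean 10 or higher), which left 13811 genes for testing. The cells were U2OS, a human osteosarcoma line, transiently transfected with a plasmid for Cas9 and a nontargeting guide (NONT) or a guide to NUP93 (NUP93-KO) or EXOSC5 (EXOSC5-KO), selected with puromycin and used as pools, not clones. Each genotype received DMSO (untreated) or 1 µM triptolide for 8 h, with 2 libraries in each of the 6 groups. Triptolide blocks initiation by RNA polymerase II, so that an mRNA made before the drug is no longer replaced. NUP93 is a nuclear pore protein and EXOSC5 is a subunit of the exosome core, and the comparison of genotypes asks whether mRNA is lost to a different extent without them.

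The RNA exosome is a barrel-shaped complex that degrades RNA from the 3′ end, and most of its catalytic activity comes from DIS3 in the nucleus and from DIS3L in the cytoplasm. In the nucleus the helicase MTREX feeds RNA into the barrel and is recruited through alternative adaptor complexes. RBM7 and ZCCHC8 form the NEXT complex with it, which targets short unspliced and promoter-upstream RNAs. ZFC3H1 forms the PAXT connection, which acts on longer polyadenylated nuclear RNAs, and ZCCHC7 with the poly(A) polymerase TENT4B forms the TRAMP complex, known for its role in the nucleolus. MPHOSPH6 and C1D bind the core and its nuclear nuclease EXOSC10 and take part in ribosomal RNA maturation.

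Values are spike-in-normalised signals that are proportional to mRNA per cell where the cells were counted and the spike-in was added without error, and fold changes are differences of log2(value + 1) fitted with limma over all 12 libraries. Approximate depth was 8.60 M to 11.96 M reads per library. The replicates of untreated NONT stood apart, with the median gene 0.51 lower on the log2 scale in replicate 1 than in replicate 2, and those of NONT with triptolide differed by 0.25. In the knockout groups this difference lay between −0.14 and 0.11. The values of all genes summed to 5.94e+06 and 4.90e+06 in treated NONT and to 8.01e+06 to 8.79e+06 in the treated knockouts. A member that is higher in treated knockout libraries than in treated NONT therefore follows the sum of all genes. The share of all genes without overlap in that comparison was not counted. Bulk values cannot tell fewer expressing cells from less RNA per cell. Nothing in the labels says that replicates came from separate cultures or transfections, so p-values measure only the spread between these libraries, which may be technical. Of 8 osteoblast lineage markers 5 had an untreated mean of at least 10, with SP7 and IBSP listed at 0 and BGLAP at no more than 5.68. All 3 mesenchymal markers reached that mean, none of the 3 blood and 2 endothelial markers did, and the epithelial EPCAM and CDH1 were present at up to 47.6 and 69.7.

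The targeted genes were read first, since the guides define the groups. The guides are shown to place the edits, in lower case from 5′ to 3′ with the adjoining PAM of the genome in capitals, on GRCh38 with GENCODE 44 annotation. The NUP93 guide lies in exon 2 of 22 at chr16:56748340-56748359 on the plus strand, which is the strand of the gene. The EXOSC5 guide lies at chr19:41397170-41397189 on the plus strand, opposite to the gene, with 9 of its bases in exon 1 of 6 and the others in the adjoining intron. The nontargeting guide is given for comparison, with no position.
NUP93 guide: gaacttacaggagatccagcAGG
EXOSC5 guide: gaagttcttaccttgcaggaAGG
Nontargeting guide: cggcggtcacgaactccagc

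EXOSC5 mRNA was at 299 and 481 in untreated NONT and at 216 and 148 in untreated EXOSC5-KO. Both knockout libraries lay below both NONT libraries, but the log2 difference of −1.08 ± 0.29 (SE) did not pass the test (limma adjusted p = 0.151). With libraries scaled to the same total it was −1.11 and passed (adjusted p = 0.00806). NUP93 mRNA was at 1753 and 2489 in untreated NONT and at 1395 and 1432 in untreated NUP93-KO. The log2 difference of −0.56 ± 0.20 (SE) did not pass (limma adjusted p = 0.926). It passed on the same total (−0.45, adjusted p = 0.0498) and with median-of-ratios scaling (−0.49, adjusted p = 0.0427). In untreated EXOSC5-KO NUP93 mRNA was at 1805 and 1618, overlapping with NONT. That difference of −0.29 ± 0.20 (SE) did not pass either (limma adjusted p = 0.836). It passed with libraries scaled to the same mitochondrial sum (−0.67, adjusted p = 0.0312) and with median-of-ratios scaling (−0.39, adjusted p = 0.0387). An mRNA level does not measure how far the protein was lost.

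Triptolide lowered most of the members in every genotype, and the deepest losses were those of RBM7, ZCCHC8, ZCCHC7 and TENT4B in each knockout, joined by ZFC3H1 in NONT. In NONT all 10 members fell at a limma adjusted p under 0.05, where 90.0% of all genes tested did, so the count itself is near the background. In NUP93-KO 9 fell, with 55.1% of all genes, and in EXOSC5-KO all 10 fell, with 64.3% of all genes. None rose. With genotypes in the order NONT, NUP93-KO, EXOSC5-KO, here and wherever 3 values follow each other, the median log2 fold change of the members was −2.72, −1.29 and −1.79, and that of all genes was −1.62, −0.92 and −1.08. In each genotype the 2 treated libraries lay below the 2 untreated libraries for all 10 members, as they did for 94.8%, 79.1% and 88.0% of all genes in NONT, NUP93-KO and EXOSC5-KO. On the scale of the same total per library 7, 6 and 8 members fell, where 38.2%, 39.3% and 36.8% of all genes did. With median-of-ratios scaling 7, 6 and 5 members fell, where 30.3%, 29.7% and 28.7% of all genes did.

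**Figure D1:**
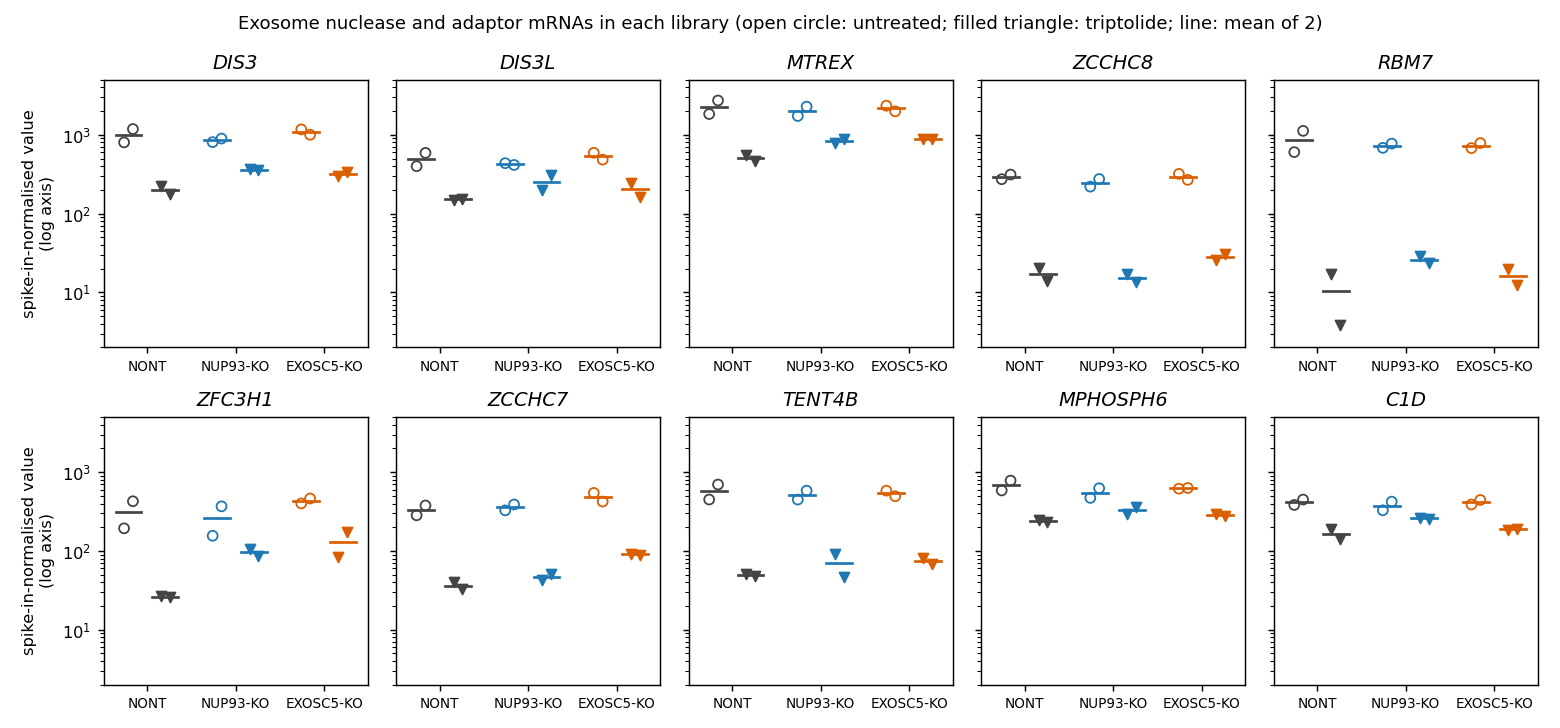
Spike-in-normalised value of each member in each of the 12 libraries, on a log axis shared by all panels; open circles are untreated libraries, filled triangles triptolide libraries and lines the mean of 2. Within each genotype RBM7 and ZCCHC8 have the lowest values after triptolide, at 3.85 to 28.6 and 13.4 to 30.7 over all genotypes. ZFC3H1 is next in NONT, at 26.9 and 25.9, and the lowest library of MTREX is at 469. These values are not divided by transcript length.

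RBM7, the RNA-binding subunit of NEXT, lost the largest share of its mRNA among the members in every genotype. Its gene lies on chromosome 11 from 114400030 to 114414203. Untreated NONT libraries held 603 and 1121, and treated ones 16.9 and 3.85. NUP93-KO held 683 and 773 untreated and 28.6 and 23.3 treated. EXOSC5-KO held 678 and 784 untreated and 19.8 and 12.5 treated. The 6 treated libraries were far below the 6 untreated ones, and the second treated NONT library was the lowest of all. The log2 fold changes of RBM7 were −6.47 ± 0.47 (SE), −4.76 ± 0.47 and −5.44 ± 0.47 (limma adjusted p = 3.90e-09, 3.14e-07 and 6.64e-08). These responses stood at percentiles 1.04, 2.31 and 1.29 of all genes tested, counted from the deepest loss. The treated values rest on about 7.85 to 32.7 reads, so the order of the genotypes is poorly resolved. A readthrough gene annotated on the same strand (ENSG00000255663) overlaps RBM7, and reads shared with it or with the pseudogene RBM7P1 were not analysed here.

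ZCCHC8, the zinc-knuckle scaffold of NEXT, was the next deepest in NONT. It lies on chromosome 12 from 122471600 to 122500932. Its values were 273 and 313 in untreated NONT and 20.3 and 13.8 with triptolide. In NUP93-KO they were 219.8 and 275 against 17.2 and 13.4, and in EXOSC5-KO 319 and 268 against 25.8 and 30.7. The treated EXOSC5-KO libraries were the highest of the treated libraries and did not overlap with the others. The log2 fold changes of ZCCHC8 were −4.05 ± 0.34 (SE), −3.93 ± 0.34 and −3.33 ± 0.34 (limma adjusted p = 1.82e-08, 7.44e-08 and 3.76e-07). Its responses stood at percentiles 9.42, 5.50 and 9.41 of all genes tested.

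The TRAMP mRNAs ZCCHC7 and TENT4B both fell in every genotype and on every scale tried. ZCCHC7, the RNA-binding subunit, lies on chromosome 9 from 37120574 to 37358149. Its NONT values were 283 and 377 untreated and 40.1 and 32.6 treated. Its NUP93-KO values were 327 and 389 untreated and 43.0 and 51.0 treated. Its EXOSC5-KO values were 545 and 423 untreated and 92.3 and 89.0 treated. The EXOSC5-KO libraries were the highest both before and after the drug. The log2 fold changes were −3.14 ± 0.28 (SE), −2.90 ± 0.28 and −2.39 ± 0.28 (limma adjusted p = 3.78e-08, 2.43e-07 and 1.71e-06). TENT4B, the noncanonical poly(A) polymerase, lies on chromosome 16 from 50152911 to 50235310. NONT had 449 and 697 before the drug and 50.5 and 47.8 after it. NUP93-KO had 449 and 583 before and 92.3 and 46.8 after. EXOSC5-KO had 582 and 494 before and 81.5 and 67.8 after. The treated NUP93-KO libraries spanned those of the other genotypes. TENT4B gave log2 fold changes of −3.48 ± 0.32 (SE), −2.94 ± 0.32 and −2.83 ± 0.32 (adjusted p = 5.46e-08, 9.02e-07 and 1.17e-06).

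ZFC3H1, the zinc-finger protein of PAXT, had the largest estimated difference between genotypes in what remained, although no such difference passed the test given further on. It lies on chromosome 12 from 71609599 to 71667725. Its values were 194 and 427 in untreated NONT and 26.9 and 25.9 with triptolide. In NUP93-KO they were 156 and 368 against 107 and 85.3, and in EXOSC5-KO 401 and 463 against 84.4 and 174. All 4 treated knockout libraries lay above both treated NONT libraries, as their sums over all genes did. The untreated replicates of NONT and of NUP93-KO differed more from each other than those of the other members. The log2 fold changes of ZFC3H1 were −3.40 ± 0.43 (SE) in NONT, −1.32 ± 0.43 with the NUP93 guide and −1.82 ± 0.43 with the EXOSC5 guide (limma adjusted p = 2.08e-06, 0.0154 and 0.00153). In NUP93-KO the call was lost without untreated replicate 2 (−0.70, adjusted p = 0.259) and without triptolide replicate 2 (−1.16, adjusted p = 0.0732), and limma without the trend gave an adjusted p of 0.0525. On the same total the NUP93-KO and EXOSC5-KO values were −0.75 and −1.03 (adjusted p = 0.146 and 0.0558), and with median-of-ratios scaling −0.42 and −0.74 (adjusted p = 0.405 and 0.147), so that neither passed.

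MTREX, the helicase shared by the adaptor complexes, had a smaller estimated loss in NONT than each of its adaptor partners. It lies on chromosome 5 from 55307989 to 55425579. The untreated NONT libraries held 1836 and 2726, and the treated ones 562 and 469. For NUP93-KO these were 1732 and 2279.6 against 781 and 889. For EXOSC5-KO they were 2341 and 1984 against 894 and 874. All 4 treated knockout libraries were higher than both treated NONT libraries, as their sums over all genes were. On the same total per library the response of MTREX differed from that in NONT by 0.10 in NUP93-KO and 0.29 in EXOSC5-KO (limma adjusted p = 0.832 and 0.489). The log2 fold changes of MTREX were −2.12 ± 0.22 (SE), −1.25 ± 0.22 and −1.28 ± 0.22 (limma adjusted p = 1.73e-07, 0.000108 and 7.41e-05), which is −0.50, −0.33 and −0.21 relative to the median gene. In EXOSC5-KO this call was lost with median-of-ratios scaling (−0.20, adjusted p = 0.0801).

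The nuclear nuclease DIS3 and the cytoplasmic DIS3L also had smaller estimated losses in NONT than the adaptors other than MTREX. DIS3 lies on chromosome 13 from 72752169 to 72782096 and had 801 and 1184 in untreated NONT libraries and 224 and 176 in treated ones. In NUP93-KO DIS3 had 807 and 896 untreated and 365 and 355 treated. In EXOSC5-KO it had 1171 and 1001 untreated and 298 and 340.0 treated. The treated libraries of the 3 genotypes did not overlap, with NONT lowest and NUP93-KO highest. DIS3 gave log2 fold changes of −2.29 ± 0.22 (SE), −1.24 ± 0.22 and −1.76 ± 0.22 (limma adjusted p = 1.10e-07, 0.000174 and 4.13e-06). DIS3L lies on chromosome 15 from 66293217 to 66333898 and had 399 and 589 in untreated NONT libraries and 150.5 and 155 in treated ones. In NUP93-KO DIS3L had 437 and 414 untreated and 200.3 and 308 treated. In EXOSC5-KO it had 591 and 484 untreated and 247 and 165 treated. Its treated NUP93-KO and EXOSC5-KO libraries overlapped, and both treated NONT libraries were lower than these. On the spike-in scale the log2 fold changes of DIS3L were −1.66 ± 0.28 (SE), −0.77 ± 0.28 and −1.40 ± 0.28 (adjusted p = 3.90e-05, 0.0251 and 0.000326), and median-of-ratios scaling gave −0.01, 0.13 and −0.32, none of which passed (adjusted p = 0.967, 0.661 and 0.254). The DIS3L call in NUP93-KO was also lost without untreated replicate 1 (−0.74, adjusted p = 0.097), without untreated replicate 2 (−0.81, adjusted p = 0.0754) and without triptolide replicate 1 (−0.47, adjusted p = 0.283).

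The small core-binding cofactors MPHOSPH6 and C1D retained the largest shares. MPHOSPH6, a docking protein for the helicase, lies on chromosome 16 from 82147798 to 82170224. NONT cells had 586 and 782 without the drug and 249 and 230.3 with it. NUP93-KO cells had 471 and 625 without and 293 and 365 with it. EXOSC5-KO cells had 617 and 629.6 without and 293 and 275 with it. The lowest treated values were in NONT. On the spike-in scale the log2 fold changes of MPHOSPH6 were −1.495 ± 0.23 (SE), −0.73 ± 0.23 and −1.13 ± 0.23 (limma adjusted p = 1.41e-05, 0.0113 and 0.000358), and median-of-ratios scaling gave 0.15, 0.17 and −0.05, none of which passed (adjusted p = 0.357, 0.298 and 0.755). In NUP93-KO the MPHOSPH6 call was lost without untreated replicate 2 (−0.53, adjusted p = 0.159) and without triptolide replicate 1 (−0.57, adjusted p = 0.130).

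C1D, an RNA-binding partner of EXOSC10, lies on chromosome 2 from 68041130 to 68110948. In NONT the 383 and 449 of the untreated libraries compare with 191 and 142 in the treated. In NUP93-KO 328 and 423 compare with 263 and 255. In EXOSC5-KO 389 and 444 compare with 187 and 189. The treated NUP93-KO libraries were the highest treated libraries, and those of NONT and EXOSC5-KO overlapped. On the spike-in scale the log2 fold changes of C1D were −1.33 ± 0.24 (SE) in NONT and −1.14 ± 0.24 in EXOSC5-KO (limma adjusted p = 7.59e-05 and 0.000527), and the value in NUP93-KO, −0.52 ± 0.24, did not pass (adjusted p = 0.0733). With median-of-ratios scaling the C1D values were 0.32 in NONT, −0.06 in EXOSC5-KO and 0.38 in NUP93-KO, and none passed (limma adjusted p = 0.103, 0.762 and 0.0568). On the same mitochondrial sum the NUP93-KO value was −0.82 and passed (limma adjusted p = 0.00678), and it passed as well with only the groups compared in the fit (adjusted p = 0.0415) and without NONT untreated replicate 1 or 2 (adjusted p = 0.0399 and 0.0391), which are in neither arm. The table's values for MPHOSPH6 and C1D may share reads with annotated pseudogenes, MPHOSPH6P1 and 5 copies of C1D.

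Expressed as the share of the untreated mean that remained, RBM7 retained 1.20%, 3.57% and 2.21% (NONT, NUP93-KO and EXOSC5-KO). Each treated library set against each untreated one gave 4 shares, of 0.343% to 2.80%, 3.01% to 4.19% and 1.60% to 2.93%. C1D retained 40.0%, 69.1% and 45.2%, the most of the members in NONT and NUP93-KO, and in EXOSC5-KO MPHOSPH6 retained 45.5%. The median gene retained 31.4%, 52.5% and 47.2%. In NONT the order after RBM7 was ZCCHC8 at 5.80%, ZFC3H1 at 8.497%, TENT4B at 8.58%, ZCCHC7 at 11.003%, DIS3 at 20.1%, MTREX at 22.6%, DIS3L at 30.9% and MPHOSPH6 at 35.04%. The pairing ranges of ZCCHC8, ZFC3H1, TENT4B and ZCCHC7 overlapped with their neighbours in this order, as did those from DIS3 to C1D. ZCCHC7 at most reached 14.2% and DIS3 at least 14.9%, so the adaptors other than MTREX did not overlap with the other members. In NUP93-KO and EXOSC5-KO this separation did not hold, because ZFC3H1 retained 36.6% and 29.9%.

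**Figure D2:**
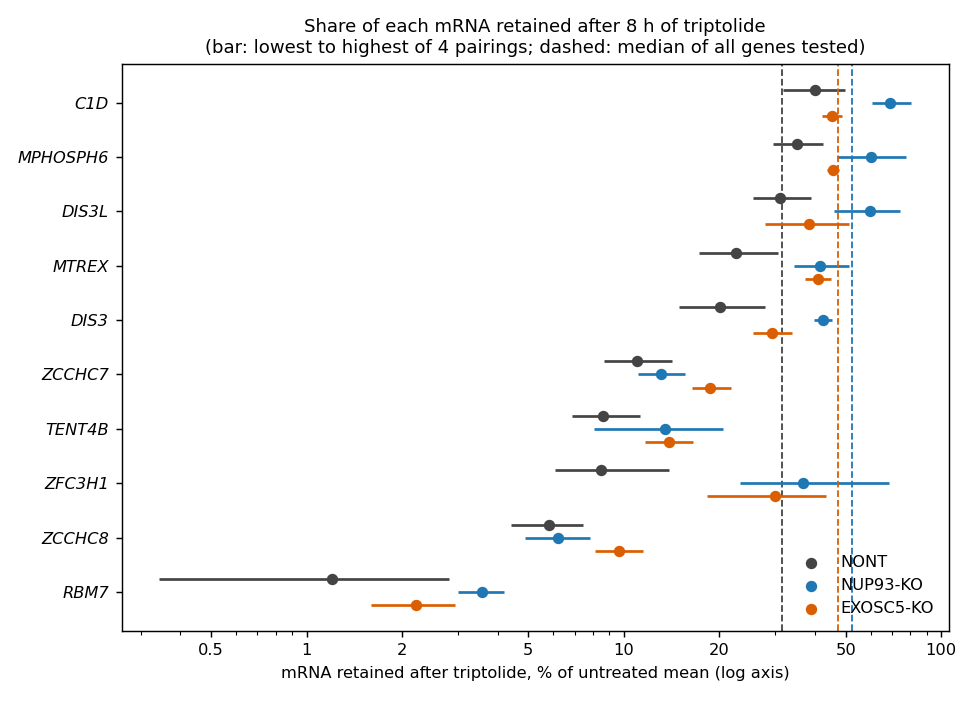
Share of each member's mRNA retained after triptolide, in percent of the untreated mean on a log axis; points are group means, bars the lowest to highest of 4 shares from single treated and untreated libraries, and dashed lines the median of all genes tested. In NONT RBM7, ZCCHC8, ZFC3H1, TENT4B and ZCCHC7 lie below the other 5 members; in the knockouts ZFC3H1 moves up to 36.6% and 29.9%.

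Ratios of members within a library do not depend on the spike-in scale, and they are given here as a description with no test. RBM7 stood at 28.96 to 41.1 per 100 of MTREX in the 6 untreated libraries and at 0.821 to 3.67 in the 6 treated libraries. ZCCHC8 went from 11.5 to 14.9 per 100 of MTREX down to 1.51 to 3.61. ZCCHC7 went from 13.8 to 23.3 down to 5.51 to 10.3. For these adaptors no treated library reached an untreated one. TENT4B was nearly constant without drug, at 24.5 to 25.9 per 100 of MTREX, and lay at 5.27 to 11.8 with it. Pooled over the genotypes, the ratios of DIS3 overlapped, at 39.3 to 50.5 untreated and 33.3 to 46.7 treated. Those of ZFC3H1 also overlapped, at 8.996 to 23.3 and 4.79 to 19.9. Taken by genotype, DIS3 was lower with the drug without overlap within NONT and within EXOSC5-KO, but overlapped within NUP93-KO. ZFC3H1 was lower without overlap within NONT and overlapped within each knockout. MPHOSPH6 stood at 26.3 to 31.9 per 100 of MTREX untreated and 31.4 to 49.1 treated, and C1D at 16.5 to 22.4 and 20.9 to 33.9. Over all genotypes both ranges were higher with the drug but overlapped. Within NONT and within NUP93-KO both were higher with the drug without overlap, and within EXOSC5-KO both overlapped. Per 100 of DIS3, DIS3L stood at 46.2 to 54.1 untreated and 48.4 to 88.2 treated. These are ratios of values per gene and not of molecules in a complex.

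**Figure D3:**
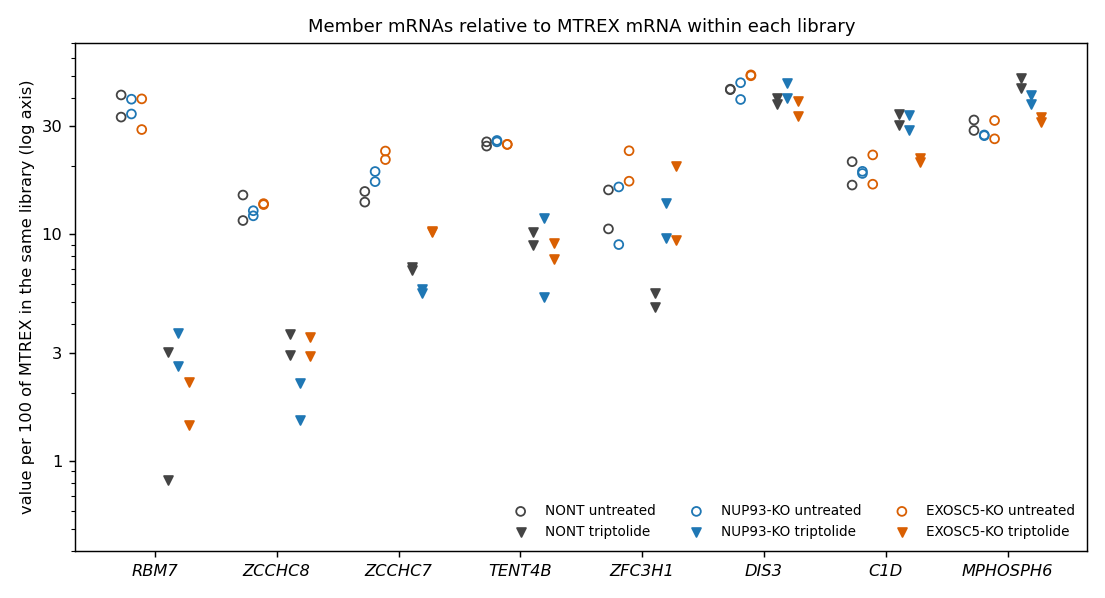
Value of each member per 100 of MTREX in the same library, on a log axis, for the 6 untreated libraries (open circles) and the 6 triptolide libraries (filled triangles), coloured by genotype. Over all genotypes RBM7, ZCCHC8, ZCCHC7 and TENT4B shift down without overlap, DIS3 and ZFC3H1 overlap, and C1D and MPHOSPH6 shift up with overlap. Within NONT and within NUP93-KO C1D and MPHOSPH6 shift up without overlap. DIS3 shifts down without overlap within NONT and within EXOSC5-KO, and ZFC3H1 within NONT.

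Between genes, levels can be compared only per length. Per kb of the canonical transcript, untreated NONT held most of MPHOSPH6 (532 and 710.1) and MTREX (463 and 688), whose libraries overlapped. RBM7 followed at 167 and 311, C1D at 171 and 200.3, DIS3L at 106 and 156, ZCCHC7 at 109.6 and 146, and DIS3 at 75.8 and 112. ZCCHC8 stood at 66.4 and 76.1, TENT4B at 53.2 and 82.5, and ZFC3H1 was lowest at 27.5 and 60.7. Neighbours in this order overlapped, except MTREX with RBM7 and C1D with DIS3L. By this length the helicase mRNA was more abundant than each of the mRNAs of its adaptors in these libraries. Which isoforms the cells expressed, and so their true lengths, was not examined.

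Without drug, neither knockout changed a member by the test. In NUP93-KO against NONT none of the 10 passed, where 0.0217% of all genes did, and none reached an unadjusted p under 0.05, where 4.2% of all genes did. The member estimates lay between −0.32 for MPHOSPH6 and 0.13 for ZCCHC7 on the log2 scale, with a median of −0.18 beside −0.09 for all genes. No member's NUP93-KO libraries were all below or all above those of NONT, as was the case for 12.8% and 7.93% of all genes. In EXOSC5-KO against NONT none passed either, where 0.521% of all genes did, and none reached an unadjusted p under 0.05, where 8.49% of all genes did. The estimates ran from −0.17 for RBM7 to 0.58 for ZFC3H1, with a median of 0.00 beside 0.07 for all genes.

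One member, ZCCHC7, had both untreated EXOSC5-KO libraries above both NONT libraries, as 19.2% of all genes had, and none had them below, as 9.2% had. Its log2 difference was 0.55 with a 95% interval of −0.04 to 1.15 (limma adjusted p = 0.649), and other scales gave 0.18 to 0.53. For the catalytic subunit DIS3 the interval was −0.32 to 0.63 in EXOSC5-KO and −0.67 to 0.28 in NUP93-KO, and for MTREX it was −0.51 to 0.40 and −0.63 to 0.29. The intervals of RBM7, −1.17 to 0.83 and −1.18 to 0.82, allow a change of over 1 log2 unit downwards.

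**Figure D4:**
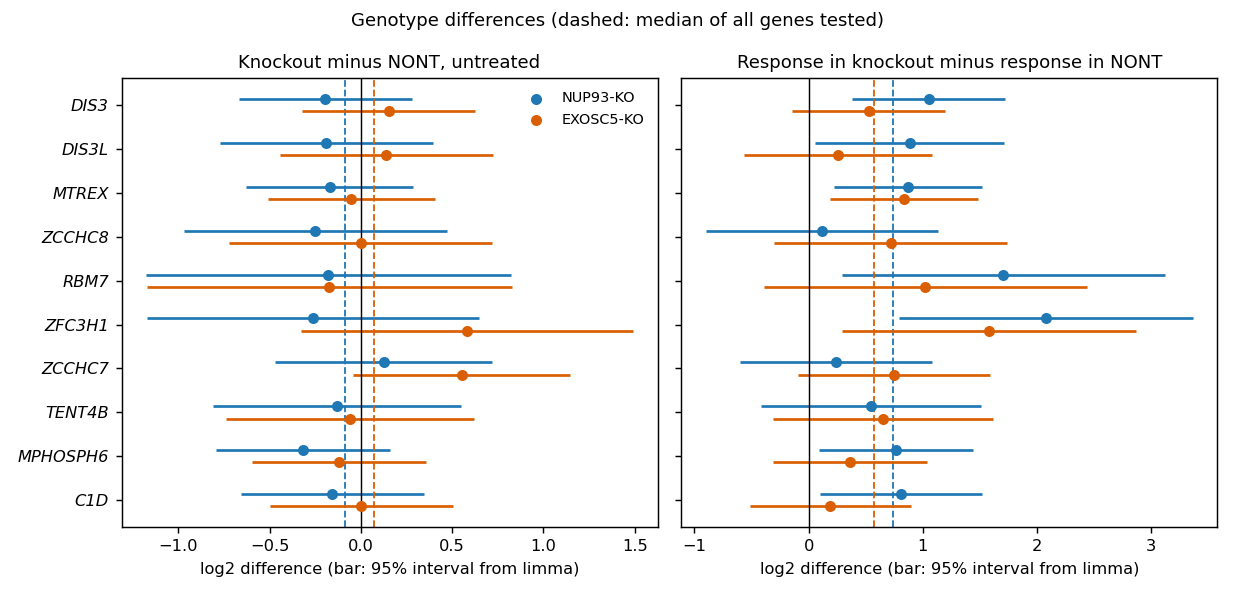
Log2 differences of each member between knockout and NONT without drug (left) and between the triptolide responses of knockout and NONT (right); bars are 95% intervals from limma and dashed lines the medians of all genes tested. Every untreated interval includes 0, and in the right panel ZFC3H1 has the largest estimates, 2.08 and 1.58.

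The difference in response between knockout and NONT was then tested for each member. In NUP93-KO minus NONT none of the 10 passed at an adjusted p under 0.05, where 0.775% of all genes did. At an unadjusted p under 0.05 there were 7, namely DIS3, DIS3L, MTREX, RBM7, ZFC3H1, MPHOSPH6 and C1D, all in the direction of less loss in the knockout, as were 41.3% of all genes at that threshold. The median was 0.84 for the members and 0.74 for all genes. In EXOSC5-KO minus NONT none passed, where 0.333% of all genes did, and MTREX and ZFC3H1 reached an unadjusted p under 0.05 in that direction, as did 23.1% of all genes. Both comparisons use the same NONT libraries, so their values are not independent.

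ZFC3H1 had the largest estimates, 2.08 ± 0.61 (SE) in NUP93-KO and 1.58 ± 0.61 in EXOSC5-KO (limma adjusted p = 0.0615 and 0.183). Over the alternatives its adjusted p ran from 0.00791 to 0.854 and from 0.0271 to 0.783. DIS3 differed by 1.05 ± 0.32 (SE) and 0.53 ± 0.32 (adjusted p = 0.0648 and 0.274), and MTREX by 0.87 ± 0.31 and 0.84 ± 0.31 (adjusted p = 0.0745 and 0.176). RBM7 differed by 1.70 ± 0.67 in NUP93-KO, with a 95% interval of 0.29 to 3.12 (adjusted p = 0.0853). ZCCHC8 and ZCCHC7 had the smallest differences in NUP93-KO, 0.12 and 0.24, and these turned to −0.61 and −0.50 with median-of-ratios scaling. The intervals of ZCCHC8 and ZCCHC7 were −0.90 to 1.14 and −0.60 to 1.08.

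How many of these differences passed depended on untreated replicate 1 of NONT. Without it 7 members passed in NUP93-KO minus NONT and 3 in EXOSC5-KO minus NONT, the latter being DIS3, MTREX and ZFC3H1, and 50.7% and 38.0% of all genes then passed in the same direction. Without replicate 1 of triptolide-treated NONT, DIS3, RBM7 and ZFC3H1 passed in NUP93-KO minus NONT, beside 18.0% of all genes, and RBM7 then differed by 2.65 (limma adjusted p = 0.0133). Testing only genes with an untreated mean of at least 50 let DIS3 and ZFC3H1 pass (limma adjusted p = 0.0478 and 0.0382), beside 9.01% of the genes kept. With the same total per library the median difference of all genes was −0.02 for the NUP93 guide and 0.04 for the EXOSC5 guide, and none of the members passed on that scale or on the mitochondrial or median-of-ratios scale.

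The other genes of the pathway were counted from lists of the exosome core, further nuclear cofactors and cytoplasmic 3′ decay factors. Of the 10 EXOSC subunits 10, 7 and 9 fell on the spike-in scale, where 90.0%, 55.1% and 64.3% of all genes did. Their median log2 fold changes were −2.11, −1.18 and −1.5005, beside −1.62, −0.92 and −1.08 for all genes. The same shares and medians of all genes apply to the lists that follow. The deepest in NONT were EXOSC3, a cap subunit of the barrel, at −3.63 ± 0.33 (SE), and EXOSC4, a ring subunit, at −3.34 ± 0.24 (limma adjusted p = 4.18e-08 and 3.55e-09). Of 16 further nuclear cofactors 16, 13 and 16 fell, with medians of −2.95, −2.07 and −2.13. ZC3H4, which limits noncoding transcription, and NRDE2, a binding partner of MTREX, were the deepest in NONT at −6.66 ± 0.41 (SE) and −4.53 ± 0.58. ZC3H4 went from 366 and 476 to 5.19 and 1.75 there, and treated NRDE2 stood at 30.9 and 5.61. A single read is worth about 0.602 and 0.49 in these treated libraries, so both sizes are poorly resolved. Over the alternatives they ran from −7.25 to −5.24 for ZC3H4 and from −5.67 to −2.96 for NRDE2. Of 5 cytoplasmic factors 5, 0 and 2 fell, with medians of −1.13, −0.02 and −0.50. With median-of-ratios scaling EXOSC5 and DIS3L2 turned to 0.96 and 0.23 in NONT, and HBS1L, a ribosome-rescue factor, to 0.48 in EXOSC5-KO.

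Features of the 3′ UTR, which the choice of members did not use, varied widely. The AUUUA pentamer, a core of AU-rich elements that can mark mRNAs for decay, was counted on the sense strand of the canonical transcript's 3′ UTR, with overlaps allowed. Of 12934 tested genes with an annotated 3′ UTR 74.3% held at least 1, and the median density was 1.75 per kb. All 10 members held at least 1. MPHOSPH6 was densest at 8.79 per kb, and RBM7 and ZCCHC7 were the sparsest at 1.43 and 1.14. The others held 4.83 (ZFC3H1), 4.55 (C1D), 4.18 (TENT4B), 3.72 (MTREX), 3.02 (DIS3), 2.11 (ZCCHC8) and 1.71 (DIS3L). Stretches of 30 bases with the pentamer in capitals are shown from the GRCh38 transcript, 5′ to 3′. Each was chosen for holding the most copies in its 3′ UTR. They come from the members that kept the most and the least, at chr16:82148295-82148324 (minus strand), chr2:68042656-68042685 (minus), chr11:114408295-114408324 (plus) and chr12:122473455-122473484 (minus).
MPHOSPH6: auaagaAUUUAuuauauaaAUUUAucaaga
C1D: auauuauauAUUUAuaAUUUAccaucucuu
RBM7: aacuucuuauauaAUUUAgguauaaauucu
ZCCHC8: gcacugagagcuAUUUAauaacuuuguucc

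MPHOSPH6 and C1D hold 2 copies each in these stretches and 5 and 8 in the whole 3′ UTR. Their NONT responses stood at percentiles 54.6 and 62.0 of all genes tested. The strongly lowered RBM7 and ZCCHC8 hold 4 each in whole 3′ UTRs of 2800 and 1897 bases. Stretches chosen in the same way hold 2 in DIS3, MTREX and TENT4B, and 1 in DIS3L, ZFC3H1 and ZCCHC7. TENT4B and DIS3 have the longest 3′ UTRs of the members, 5982 and 7626 bases, with 25 and 23 copies, at percentiles 94.3 and 97.0 of length. Across the 12934 genes Spearman's rho between density and the NONT response was −0.06, and between 3′ UTR length and the response −0.17, given as a description without a test because genes are not replicates and share these libraries.

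**Figure D5:**
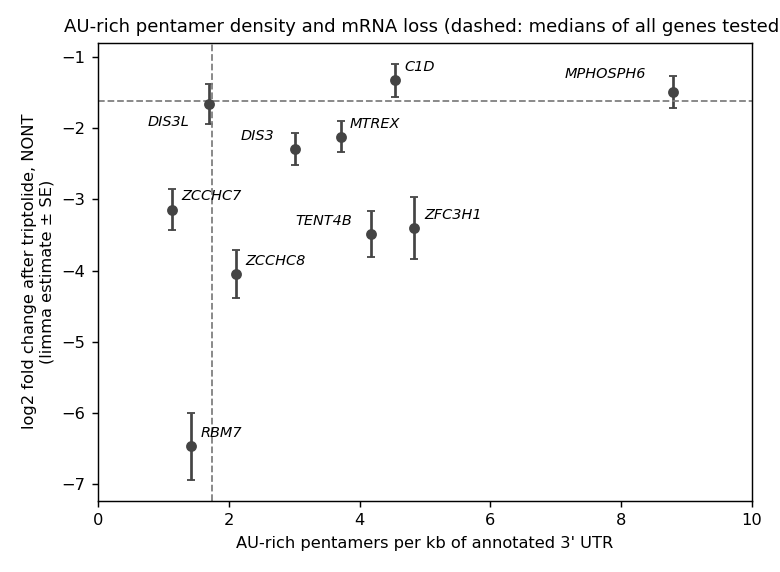
Density of the AU-rich pentamer in each member's annotated 3′ UTR, in copies per kb, against the log2 fold change after triptolide in NONT (limma estimate ± SE); dashed lines are the medians of all genes tested. RBM7 combines a density of 1.43 with a log2 fold change of −6.47, and MPHOSPH6 a density of 8.79 with −1.495, a value that turned to 0.15 with median-of-ratios scaling. ZFC3H1 and TENT4B combine densities of 4.83 and 4.18 with −3.40 and −3.48, and DIS3L combines 1.71 with −1.66.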

How the data were processed

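Polyadenylated RNA from 12 libraries was analysed. The authors lysed counted cells, added ERCC spike-in RNAs in proportion to cell number, pseudoaligned stranded reads with kallisto 0.46.1 to the Ensembl GRCh38 cDNA set, summed them per gene with tximport, divided by DESeq2 size factors from the 92 ERCC transcripts and kept protein-coding genes. The values the authors deposited are thus a normalised signal per gene and not read counts. An error in cell counting or spike-in volume moves all genes of a library together.

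The table held 22471 rows, and 19584 of 22379 gene IDs matched GENCODE 44. Values were analysed as log2(value + 1), which understates the change of low genes. Genes with an untreated mean of at least 10 were fitted with limma 3.58.1 in R 4.3.3 (6 group means, eBayes with trend, two-sided, Benjamini-Hochberg over 13811 genes), and a positive difference in response means less loss than in NONT. The code was tested on simulated data. Depth was estimated from the spacing of low values. Members and gene lists were chosen with earlier results of these data known. Named genes were the members, both targets and, in each list and contrast, at most 2 higher and 2 lower genes of largest change that passed an adjusted p of 0.05 with no overlap between libraries. Alternatives covered the pseudocount, filter, scale, limma trend, groups fitted, a replicate block and each library left out. No sequence of the proteins was used here. Python 3.11.15, pandas 2.3.3 and matplotlib 3.10.9 made summaries and figures.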

Additional observations from a re-analysis of the deposited data

Results flagged for a closer look

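The triptolide response of 2 genes outside the members, both from the pathway lists, differed between a knockout and NONT by a test of the difference itself. SKIC2, the helicase of the cytoplasmic SKI complex that feeds mRNA to the exosome, had a log2 difference of 2.59 ± 0.53 (SE) between NUP93-KO and NONT (limma adjusted p = 0.0437, and 0.00345 to 0.505 over the alternatives). In NONT its values were 251 and 562 untreated and 107 and 100.1 treated, and in NUP93-KO they were 129.8 and 281 untreated and 252 and 407 treated. EXOSC4, a ring subunit of the core, had a difference of 1.69 ± 0.34 (SE) between EXOSC5-KO and NONT (adjusted p = 0.0480, and 0.0145 to 0.258 over the alternatives). Its NONT values were 557 and 799 untreated and 72.0 and 58.2 treated, and its EXOSC5-KO values 786 and 679.7 untreated and 224 and 238 treated. Neither difference passed with the same total per library, the same mitochondrial sum or median-of-ratios scaling. SKIC2 and EXOSC4 also failed with no filter on low values (limma adjusted p = 0.101 and 0.102) and without the limma trend (0.130 and 0.118). EXOSC4 failed as well with a pseudocount of 5 (limma adjusted p = 0.0587), a replicate block (0.0692) and only the groups compared in the fit (0.0522).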

How the results depend on the processing

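The number of members lower after triptolide in EXOSC5-KO was 5 with median-of-ratios scaling, against 10. Members with less loss in NUP93-KO than in NONT numbered 2 with an untreated mean of at least 50, and 0 to 7 over the fits that leave out 1 library; for EXOSC5-KO the latter range was 0 to 3, and for members lower in NUP93-KO it was 6 to 10. The cause was not tested. Leaving out a library left 1 in an arm, which was assumed to vary like the others. Of 1144 alternative values for named genes in the triptolide responses 1075 kept their side of the threshold, 46 no longer passed and 5 newly passed. The other 18 changed direction and passed in the main fit, the alternative or both. Of 1100 in the other comparisons these numbers were 1050, 26, 24 and 0. Over both sets 73 values that passed in neither fit changed sign, and they are counted among those that kept their side. Among them was C1D in NUP93-KO, at 0.0467 with the same total and 0.38 with median-of-ratios scaling. The 18 changes of direction came with other scales. With median-of-ratios scaling they were, in NONT, C1D (0.32), MPHOSPH6 (0.15), DIS3L2 (0.23), EXOSC5 (0.96) and NUP93 (0.52), in NUP93-KO DIS3L (0.13), MPHOSPH6 (0.17), EXOSC5 (0.60) and NUP93 (0.26), and in EXOSC5-KO DIS3L2 (0.0192), EXOSC5 (0.0486), HBS1L (0.48) and NUP93 (0.56). With the same total they were C1D (0.0049), EXOSC5 (0.65) and NUP93 (0.20) in NONT, and HBS1L (0.19) and NUP93 (0.27) in EXOSC5-KO.

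Across genes, deviations of same-numbered libraries from their group means correlated at −0.05 to 0.04 over 15 pairs of groups. Such a correlation cannot see a shift common to all genes of a library, so pairing of that kind was not tested. A replicate block changed no call on a member, and 1 among the other named genes, EXOSC4 in EXOSC5-KO minus NONT (1.69, limma adjusted p = 0.0692). Among the members depth limited the treated values of RBM7 and ZCCHC8, which rest on about 7.85 to 37.4 reads. The low treated values of ZC3H4 and NRDE2 share this limit.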
